A study of Rattus norvegicus with 16 samples.

Results

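Gene expression was compared between TRKA cells and p75 cells sorted from cultures of rat olfactory mucosa, the nasal lining made of the olfactory epithelium with its underlying nerve bundles and connective tissue. The comparison took the 8 arrays titled TRKA or p75, 4 biological replicates of each, out of 16 arrays in all. The TRKA cells and the p75 cells both came from male Fischer rats, were grown by the same culture protocol and were separated by flow cytometry to a purity of 93 to 97%, per the labels. The other 8 arrays held 4 TRKA-TGF samples, which are TRKA cells conditioned with TGF-a, and 4 CD90 samples. They entered here in the common estimate of the spread, in the filter on dim probes, in the choice of probe for a gene and in some alternative scalings. The labels used here give no age for the rats and do not say whether a replicate stands for 1 rat or for several. If the replicates did not come from separate animals or cultures, the p-values measure only the spread between these samples, which may be technical.

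TRKA is a receptor tyrosine kinase for neurotrophins, and p75, encoded by Ngfr, is a receptor of the tumour necrosis factor receptor family that binds every neurotrophin. In the olfactory nerve, p75 is widely used as a surface marker of olfactory ensheathing cells, the neural crest derived glia that wrap the axons of olfactory neurons and depend on the transcription factor Sox10. Tissue macrophages, the phagocytes that clear dying cells there, carry Tyrobp (DAP12), a signalling adaptor of myeloid receptors, and need the colony-stimulating factor receptor Csf1r.

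Messenger RNA was isolated on magnetic beads, amplified as cDNA by global PCR, and 250 ng of cDNA was labelled with Cy3 and hybridised to single-colour Agilent arrays. Levels are log2 processed signals set relative to the array's own 75th percentile, which is therefore a level of 0. Each difference is TRKA minus p75. The share of spots well above background was 55.5, 51.4, 53.7 and 57.5% on the TRKA arrays, against 68.5, 71.2, 71.0 and 69.4% on the p75 arrays. All 4 TRKA arrays were below every p75 array (54.5 ± 2.60% in TRKA and 70.02 ± 1.31% in p75, SD, n = 4 each). A two-sided exact permutation test gave p = 0.0286, the smallest value that 4 against 4 arrays allow. The median processed signal was 39.2, 22.8, 29.0 and 36.0 on the TRKA arrays, against 189, 219, 214 and 187 on the p75 arrays, and the groups did not overlap here either (exact permutation p = 0.0286). The local background around the spots was 43.9 ± 2.02 for TRKA and 44.8 ± 3.95 for p75 (SD, n = 4 each; exact permutation p = 0.686). TRKA replicates correlated with each other at r = 0.736 to 0.761 across probes and p75 replicates at 0.843 to 0.893, whereas TRKA and p75 arrays correlated at 0.560 to 0.634 (genes are not independent replicates). The median SD over the 4 replicates was 1.08 log2 units in TRKA and 0.65 in p75. It was 0.68 in CD90 and 0.54 in TRKA-TGF. The SEs and p-values below come from the spread of all 4 groups, so they rest partly on arrays outside this comparison. The part of the gap in signal and spread between TRKA and p75 arrays in the results below was not tested. All 8 arrays lay on slide 1, with the TRKA group in row 2 and the p75 group in row 1, so row and group cannot be told apart.

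**Figure D1:**
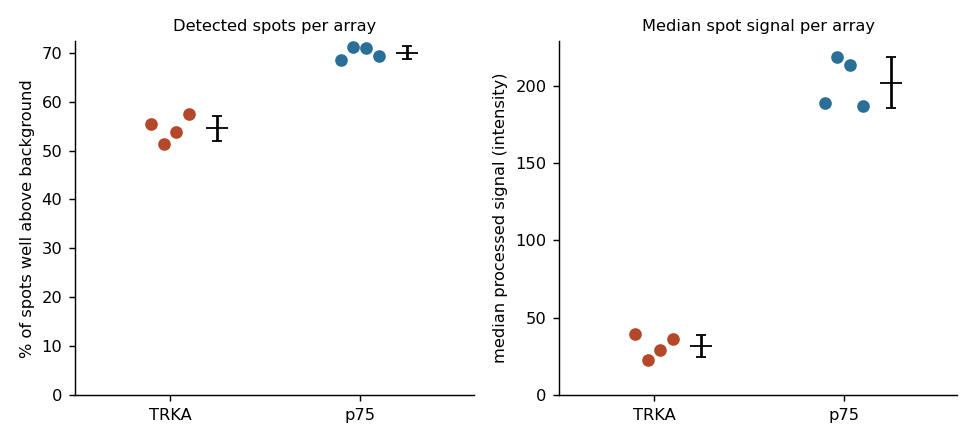
Percentage of spots well above background (left panel) and median processed signal in intensity units (right panel) of each array. Points are the 4 TRKA arrays and the 4 p75 arrays, and the black mark beside them is the mean with 1 SD (n = 4 each). The TRKA arrays lie at 51.4 to 57.5% and the p75 arrays at 68.5 to 71.2%, and the median signals lie at 22.8 to 39.2 in TRKA and 187 to 219 in p75.

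Of 20572 genes tested, 7352 (35.7%) passed an adjusted p of 0.05 by limma with Benjamini-Hochberg adjustment: 3872 (18.8%) were higher in TRKA cells and 3480 (16.9%) lower. Fitted on the TRKA and p75 arrays alone, 5067 genes were called, 2738 higher and 2329 lower. The median difference over all genes was −0.01. The TRKA and p75 levels did not overlap for 6486 genes (31.5%). Of genes detected in 1 population alone, 857 were well above background on no TRKA array and on all 4 p75 arrays (822 called lower), while 70 were on all 4 TRKA arrays and on no p75 array (69 called higher). Among the 10068 genes above background on all 8 arrays, 4055 (40.3%) were called, 3241 (32.2%) higher and 814 (8.09%) lower, with a median difference of 0.59. This set leaves out genes at background on the TRKA arrays, which detected fewer spots, so its balance of directions follows partly from how it was chosen. Among the 14109 genes with a current symbol, to which the gene lists below belong, 34.8% were called, 14.6% higher and 20.1% lower. Differences beyond 5 log2 units were called for 380 higher and 1394 lower genes. The share of calls that were higher depended on the scaling. It was 52.7% with the scaling used here, 60.4% after quantile normalization, 66.9% after normexp background correction and 20.7% (1515 or 7.36% of genes higher, 5805 or 28.2% lower, 35.6% in all) when each array was scaled on the probes detected on all 16 arrays. That last scaling, called the common-probe scale below, moved the median difference of all genes to −0.90, so a difference smaller than 1 log2 unit has no settled direction here. Every gene is therefore read against a median of −0.01, and genes that change sign on the common-probe scale are named as such. Some differences beyond 1 log2 unit turned in other alternatives, which are given in the closing sections. In RNA from bulk samples, fewer cells of a type and less RNA per cell cannot be told apart.

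**Figure D2:**
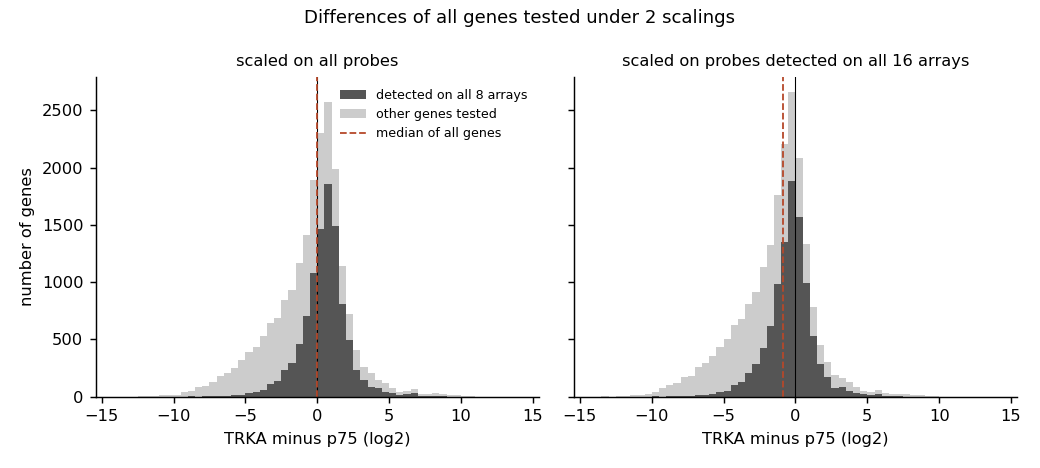
Histograms of the difference in level (TRKA minus p75, log2 units) over all 20572 genes tested, scaled on all probes (left panel) and on the probes detected on all 16 arrays (right panel). Dark bars are the 10068 genes detected on all 8 arrays, light bars the other genes stacked on them, and the dashed line is the median of all genes, at −0.01 on the left and −0.90 on the right. The genes not detected on all 8 arrays form a long tail to the left in both panels.

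The gene of the receptor that named the p75 sort differed as the labels say. Ngfr (chr10:84263082-84263141, rn4) had levels of −7.64, −7.46, −6.84 and −7.46 in TRKA cells, where no array was above background, against 3.32, 3.32, 3.18 and 2.82 in p75 cells. It was at least 393-fold lower in TRKA cells (difference −10.51 ± 1.13 SE; limma adjusted p = 8.16e-06). "At least" sets the p75 mean against the TRKA mean of a floor: on each array, the lowest signal of any spot marked well above background, or the gene's own signal where that is larger. Thy1 (chr8:47031186-47031646), which encodes the CD90 glycoprotein, had levels of −7.12, −7.36, −4.99 and −3.83 in TRKA cells, against −1.80, −1.53, −1.11 and −1.80 in p75 cells. It was lower in TRKA cells by a difference of −4.27 ± 0.64 (SE; limma adjusted p = 0.000145).

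The marker pair Tyrobp and Sox10 separated the groups in opposite directions. Tyrobp (chr1:85369110-85369169) had levels of 6.18, 6.57, 6.38 and 6.23 in TRKA cells, against −6.65, 0.24, −3.47 and 0.17 in p75 cells, a difference of 8.77 ± 1.14 (SE; limma adjusted p = 4.52e-05). The TRKA arrays were within 0.5 log2 units of each other, while the p75 arrays fell into levels near 0 on replicates 2 and 4 and far lower levels on replicates 1 and 3. Sox10 (chr7:117138840-117138899), the transcription factor of neural crest glia, had levels of −7.39, −6.30, −2.62 and −3.93 in TRKA cells, against 3.97, 4.22, 4.56 and 4.10 in p75 cells, a difference of −9.27 ± 1.35 (SE; limma adjusted p = 0.000113). Here the p75 arrays were the tight group, and Sox10 was above background on 2 of 4 TRKA arrays.

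**Figure D3:**
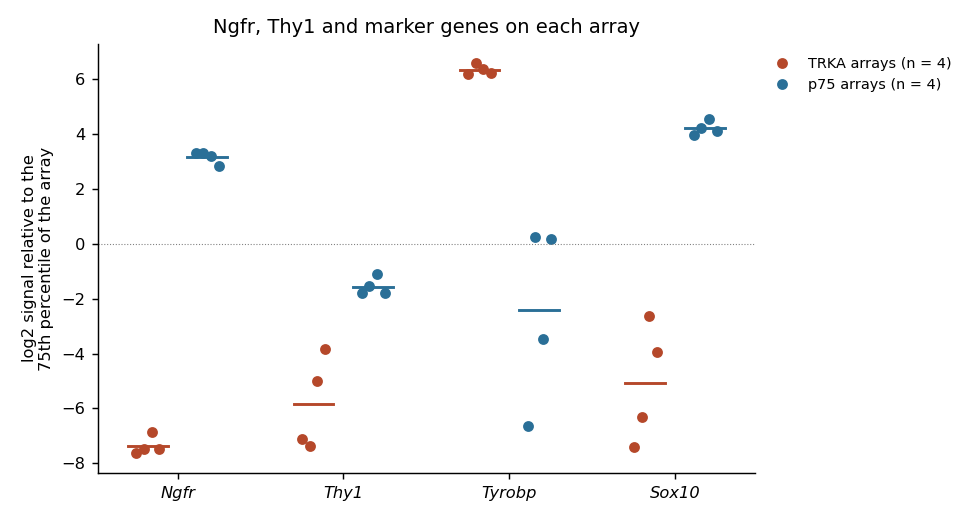
Levels of Ngfr, Thy1, Tyrobp and Sox10 on the 4 TRKA arrays (left of each pair) and the 4 p75 arrays, on a log2 axis whose 0 is each array's 75th percentile. Points are arrays and bars are group means. Ngfr, Thy1 and Sox10 are lower on every TRKA array, and Tyrobp is higher on every TRKA array.

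The genes that define myeloid cells were higher in TRKA cells throughout the list. The myeloid identity list held 20 genes, all 20 were on the array and passed the filter on dim probes, which asked for a mark of well above background on 4 or more arrays of 16, and 20 were called higher, with a median difference of 7.36 (6.47 on the common-probe scale). A gene can pass that filter through the TRKA arrays alone, so these counts are descriptions. All 20 were above background on every TRKA array, with summed linear levels of 743 to 909 in TRKA cells, against 14 to 16 genes and sums of 11.3 to 19.6 in p75 cells (75th percentile = 1). Cd163, the macrophage scavenger receptor for haemoglobin and haptoglobin, had levels of 5.20, 5.47, 5.14 and 4.64 in TRKA cells, against −3.27, −8.25, −7.99 and −2.77 in p75 cells. It was above background on 2 of the p75 arrays and differed by 10.68 ± 1.33 (SE; limma adjusted p = 2.93e-05). Itgb2, the beta 2 integrin chain of leukocytes, had levels of 1.59, 2.17, 1.55 and 2.44 in TRKA cells and was above background on no p75 array. Itgb2 was at least 258-fold higher (limma adjusted p = 2.91e-09). Lcp1, the actin-bundling plastin of leukocytes, differed by 10.45 ± 0.77 (SE; limma adjusted p = 2.34e-07). Its p75 level was −4.27 on replicate 2 and −8.30 to −7.88 on the others. Undetected probes had median levels of −8.24 to −7.99 on the p75 arrays, so the size of this difference leans on the floor. Csf1r, the receptor for colony-stimulating factor 1 and interleukin 34, had levels of 3.83, 5.31, 5.12 and 4.06 in TRKA cells, against 0.09, −3.34, −2.43 and −3.76 in p75 cells, and the groups were more than 3 log2 units apart at their nearest arrays. Aif1 (Iba1), a calcium-binding protein of macrophages, had levels of 6.70, 7.12, 6.96 and 6.70 in TRKA cells, against 2.00, −0.08, 0.64 and 1.11 in p75 cells. Cd68, a lysosomal glycoprotein of phagocytes, had levels of 4.15, 4.33, 4.23 and 4.21 in TRKA cells, against −3.49, −4.52, −2.04 and −4.16 in p75 cells. For both genes each TRKA array was above every p75 array, by 5.95 ± 0.37 (SE; limma adjusted p = 4.03e-08) for Aif1 and by 7.78 ± 0.41 (SE; limma adjusted p = 7.27e-09) for Cd68. Ptprc (CD45), the phosphatase on the surface of leukocytes, had levels of 0.24, 0.41, −1.21 and −1.92 in TRKA cells and was above background on no p75 array. It was at least 43.8-fold higher (limma adjusted p = 7.64e-05).

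Some myeloid transcripts varied widely among the p75 arrays. Cd14, the co-receptor for endotoxin, had levels of 5.77, 5.56, 5.93 and 5.53 in TRKA cells, against −1.19, −8.36, −0.38 and −1.11 in p75 cells. Adgre1 (F4/80), an adhesion receptor of macrophages, had levels of 3.29, 4.07, 3.32 and 3.52 in TRKA cells, against −7.47, 0.76, −0.99 and −6.97 in p75 cells. The p75 arrays thus spread over more than 7 log2 units for each gene, while the TRKA arrays stayed within 1. The differences were 8.46 ± 1.30 (SE; limma adjusted p = 0.000174) for Cd14 and 7.22 ± 1.42 (SE; limma adjusted p = 0.00125) for Adgre1. The cause of the spread between p75 arrays was not tested.

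**Figure D4:**
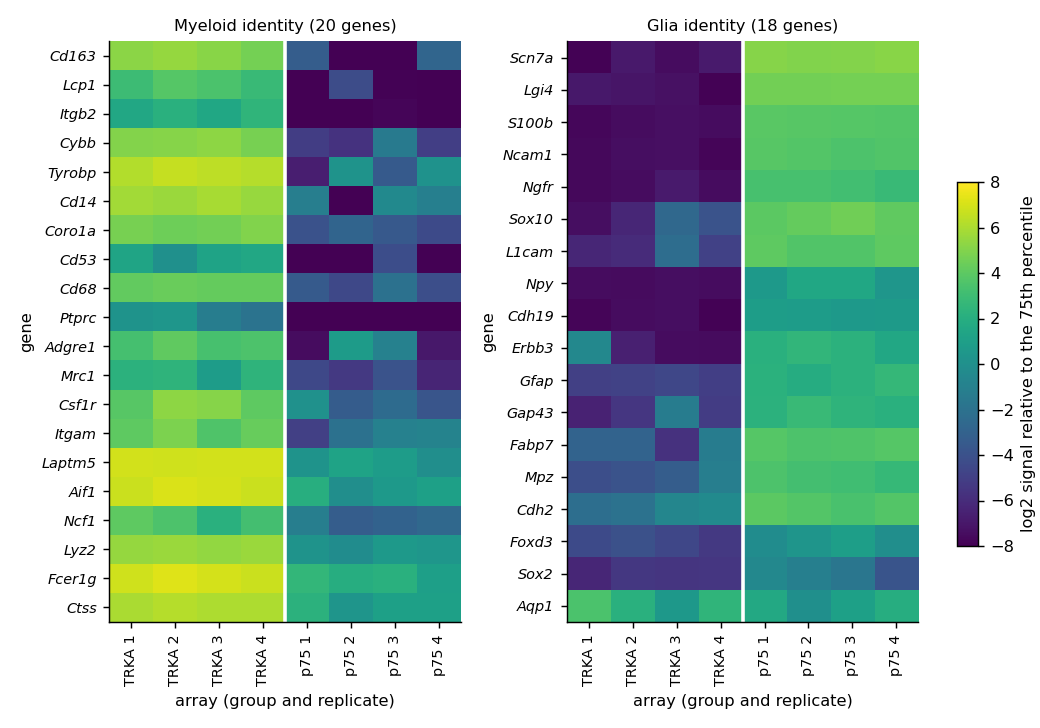
Heat maps of levels (colour, log2, with 0 at each array's 75th percentile) of the 20 myeloid identity genes and 18 of the 19 glia identity genes that passed the filter, 1 gene per line and 1 array per column, TRKA arrays left of the white line and p75 arrays right of it. Genes are ordered by the size of the difference. All 20 myeloid genes were called higher in TRKA cells and 17 of the glia genes shown lower, with Aqp1 at the bottom not called.

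Receptors for myeloid growth factors and for pathogen and antibody recognition followed. Of 13 colony-stimulating factor and myeloid growth receptors, all on the array and past the filter, 7 were higher and 6 were not called (median difference 2.30). Csf2ra, the binding chain of the receptor for granulocyte-macrophage colony-stimulating factor, had levels of 5.22, 5.23, 4.67 and 4.80 in TRKA cells, against −0.29, −0.29, −0.37 and −0.70 in p75 cells. It differed by 5.39 ± 0.63 (SE; limma adjusted p = 1.82e-05), and its signalling partner Csf2rb by 6.95 ± 1.55 (SE; limma adjusted p = 0.00306). Csf3r, the receptor for granulocyte colony-stimulating factor, was not called (0.86, limma adjusted p = 0.418, and −0.03 on the common-probe scale). Of 23 Fc, Trem and paired receptors, 21 were on the array, 20 passed the filter and 19 were higher (median difference 6.56). Fcgr1a, the high-affinity receptor for immunoglobulin G, had levels of 5.49, 5.67, 5.66 and 5.70 in TRKA cells, against 0.05, −3.35, −0.15 and −5.67 in p75 cells. Trem2, a lipid receptor that signals through Tyrobp, had levels of 3.21, 3.75, 4.31 and 4.71 in TRKA cells, against −3.04, −2.76, −3.12 and −1.34 in p75 cells. Both were higher on every TRKA array than on any p75 array, by 7.91 ± 0.98 (SE; limma adjusted p = 2.78e-05) for Fcgr1a and by 6.56 ± 0.96 (SE; limma adjusted p = 0.000114) for Trem2. Clec4d, a C-type lectin of phagocytes, was at least 78.8-fold higher (limma adjusted p = 4.94e-05), while its relative Clec4e was above background on none of the 8 arrays (difference 0.67, and −0.22 on the common-probe scale).

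Toll-like receptors split. Of 19 genes on that list, 18 were on the array and passed, 9 were higher and 9 were not called (median difference 3.31, and 8 higher and 2 lower on the common-probe scale). Tlr2, which recognises bacterial lipopeptides, had levels of 1.13, 3.06, 2.07 and 2.17 in TRKA cells, against −6.82, −6.11, −6.11 and −6.21 in p75 cells. It differed by 8.42 ± 0.76 (SE; limma adjusted p = 1.55e-06), with the groups more than 7 log2 units apart. Pycard, the adaptor of inflammasomes, differed by 8.53 ± 0.85 (SE; limma adjusted p = 4.02e-06) and Nlrp3, an inflammasome sensor, by 7.03 ± 1.50 (SE; limma adjusted p = 0.00227). Myd88, the adaptor that most toll-like receptors signal through, gave −0.46 (limma adjusted p = 0.831). Of 19 leukocyte integrins and homing receptors, 19 were on the array and 14 passed, of which 6 were higher and 2 lower (median 1.17). C5ar1, the receptor for the complement fragment C5a, differed by 9.60 ± 0.85 (SE; limma adjusted p = 1.37e-06), and Selplg, the selectin ligand, by 8.44 ± 0.89 (SE; limma adjusted p = 6.74e-06). The 2 that fell were Itga4, the alpha 4 integrin chain (−3.17, limma adjusted p = 0.023), and Fpr1, a receptor for formyl peptides (−2.32, limma adjusted p = 0.000118). Both were also lower on the common-probe scale. Itga4 was not called without TRKA replicate 3 or p75 replicate 2 (−2.88 to −2.94, limma adjusted p = 0.0579 to 0.0604). Fpr1 was not called after quantile normalization (−0.65, limma adjusted p = 0.179).

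Signalling proteins of leukocytes were mostly higher in TRKA cells. Of 26 genes on the list, 25 were on the array and passed, and 22 were higher (median difference 6.87). Coro1a, an actin regulator of leukocytes, had levels of 4.72, 4.46, 4.61 and 4.99 in TRKA cells, against −3.96, −2.83, −3.56 and −4.39 in p75 cells, and differed by 8.38 ± 0.40 (SE; limma adjusted p = 3.21e-09). Syk, the kinase that binds Tyrobp and Fc receptor adaptors, had levels of 3.56, 2.91, 3.85 and 4.26 in TRKA cells, against −6.11, −5.02, −5.54 and −2.05 in p75 cells, and differed by 8.32 ± 1.05 (SE; limma adjusted p = 3.29e-05). Inpp5d (SHIP1), a lipid phosphatase of blood cells, had levels of 4.81, 4.90, 4.61 and 4.14 in TRKA cells, against −3.29, −4.85, −2.64 and −5.20 in p75 cells. Vav1, the exchange factor of blood cells, had levels of 2.63, 1.84, 1.48 and 2.15 in TRKA cells and was above background on no p75 array. Inpp5d differed by 8.61 ± 1.29 (SE; limma adjusted p = 0.000139), and Vav1 was at least 274-fold higher (limma adjusted p = 1.86e-05). Fyb1, an adaptor that links receptors to integrins, was at least 320-fold higher (limma adjusted p = 1.85e-08), and the sorting nexin Snx20, which binds Selplg, differed by 11.55 ± 0.58 (SE; limma adjusted p = 4.65e-09).

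Of 20 myeloid transcription factors, all were on the array and 17 passed, of which 9 were higher, 3 lower and 5 not called (median difference 2.82). Spi1 (PU.1), the factor that myeloid cells need to form, had levels of −1.57, −2.16, 3.21 and 1.22 in TRKA cells, against −4.82, −4.10, −4.85 and −4.75 in p75 cells. No TRKA array overlapped a p75 array, although the TRKA levels spread over more than 5 log2 units, and the difference was 4.80 ± 1.03 (SE; limma adjusted p = 0.00227). Irf8, a partner of Spi1, differed by 6.03 ± 1.05 (SE; limma adjusted p = 0.000464). The 3 that fell were Nr4a1 (−3.50, limma adjusted p = 0.0223), Klf4 (−3.40, limma adjusted p = 0.0203) and Cebpd (−3.18, limma adjusted p = 0.000323), which other cell types also use. All 3 were also lower on the common-probe scale. Klf4 was not called without TRKA replicate 2 or 3 or p75 replicate 1 (−2.54 to −3.14, limma adjusted p = 0.0539 to 0.0603). Nr4a1 was not called without TRKA replicate 1, 2 or 4 or p75 replicate 4 (−3.01 to −3.36, limma adjusted p = 0.0516 to 0.0588).

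Spi1 binds purine-rich DNA, so the promoters of genes that were higher in TRKA cells were searched for the letters GAGGAAGT on either strand (ACTTCCTC on the other), with sequences from RefSeq for the GRCr8 assembly. Each window holds 250 bases before a gene's start and 50 after, 300 in all. The promoters of 4 genes named here that held a match are shown, all of them called higher. They come from different roles (a protease, a surface protein and a pair of signalling proteins). Sequences run 5′ to 3′ on the gene's strand, with the matched letters in capitals. The windows lie at chr2:185775146-185775445 on the plus strand for Ctss, the cathepsin of antigen-presenting cells, chr2:197087847-197088146 on the minus strand for Cd53, a leukocyte tetraspanin, chr9:2248705-2249004 on the plus strand for Vav1 and chr9:95735283-95735582 on the plus strand for Inpp5d.
Ctss: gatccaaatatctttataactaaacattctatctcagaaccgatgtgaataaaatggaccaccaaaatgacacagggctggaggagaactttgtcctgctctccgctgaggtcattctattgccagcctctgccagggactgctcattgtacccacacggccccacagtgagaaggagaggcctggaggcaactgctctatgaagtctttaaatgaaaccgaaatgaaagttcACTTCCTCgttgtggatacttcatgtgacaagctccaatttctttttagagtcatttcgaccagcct
Cd53: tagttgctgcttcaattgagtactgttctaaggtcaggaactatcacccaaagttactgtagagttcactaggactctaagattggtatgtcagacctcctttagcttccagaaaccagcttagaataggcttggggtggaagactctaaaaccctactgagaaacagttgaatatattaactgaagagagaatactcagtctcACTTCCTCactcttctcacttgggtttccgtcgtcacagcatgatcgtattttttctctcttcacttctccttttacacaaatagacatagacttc
Vav1: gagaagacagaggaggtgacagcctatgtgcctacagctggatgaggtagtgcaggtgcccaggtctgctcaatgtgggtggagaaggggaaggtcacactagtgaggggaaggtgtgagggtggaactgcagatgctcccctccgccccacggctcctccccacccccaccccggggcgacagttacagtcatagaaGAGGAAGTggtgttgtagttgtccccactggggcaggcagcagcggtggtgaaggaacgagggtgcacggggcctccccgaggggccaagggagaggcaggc
Inpp5d: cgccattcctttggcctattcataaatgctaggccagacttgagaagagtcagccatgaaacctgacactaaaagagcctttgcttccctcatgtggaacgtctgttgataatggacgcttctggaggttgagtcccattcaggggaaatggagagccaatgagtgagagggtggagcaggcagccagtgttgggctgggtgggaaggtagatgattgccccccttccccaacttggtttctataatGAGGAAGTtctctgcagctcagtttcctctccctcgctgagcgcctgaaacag
The first matched base lay at −17 from the start in Ctss, −46 in Cd53, −52 in Vav1 and −3 in Inpp5d. Matches were not limited to genes called higher. Erbb2, which was called lower (−3.50), held the same letters at −64. List members that were not called held them too, among them Cd5, Il23a and Prtn3. Ctss differed by 4.85 ± 0.32 (SE; limma adjusted p = 8.18e-08) and Cd53 by 8.24 ± 0.81 (SE; limma adjusted p = 3.29e-06). The p75 level of Cd53 was −4.20 on replicate 3 and −8.27 to −8.09 on the others, near that of undetected probes. The letters were in 670 (2.44%) of all 27457 promoters listed, in 61 of 1700 (3.59%) for genes called higher, in 43 of 2277 (1.89%) for genes called lower and in 190 of 7575 (2.51%) for genes not called. By list the share was 3 of 18 (16.7%) for leukocyte signalling, 2 of 15 (13.3%) for myeloid identity, 2 of 16 (12.5%) for Fc, Trem and paired receptors and 2 of 18 (11.1%) for lysosomal genes. It was 0 for 7 of the 15 lists of myeloid genes and functions, among them 0 of 16 for myeloid transcription factors, for toll-like receptors and for scavenger genes, and 0 of 10 for glia identity. Searched the same way, the C/EBP letters TTGCNNAA were in 10.1% of genes called higher, 8.30% of genes called lower and 10.5% of all promoters, the SOX letters AACAAAG in 4.47, 4.30 and 5.82%, the RUNX letters TGTGGTTT in 1.88, 1.36 and 1.83%, and the sterol factor (SREBP) letters TCACNCCAC in 0.941, 0.966 and 1.13%. The lists are too short to set against all promoters, and a match is a description of letters, not a binding site or a cause.

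Antigen presentation, complement and phagocyte genes were mostly higher. Of 14 MHC class II genes, 14 were on the array and 13 passed, of which 11 were higher (median difference 5.45). Cd74, the invariant chain of class II molecules, had levels of 6.51, 6.86, 6.29 and 6.28 in TRKA cells, against 1.74, 1.03, 0.69 and 0.62 in p75 cells, and differed by 5.47 ± 0.42 (SE; limma adjusted p = 3.25e-07). RT1-DMa, a rat class II peptide exchange protein, had levels of 5.67, 5.82, 5.74 and 5.62 in TRKA cells, against −5.86, 0.35, −1.59 and −1.95 in p75 cells, and differed by 7.97 ± 1.06 (SE; limma adjusted p = 5.16e-05). The class II transactivator Ciita was at least 117-fold higher (limma adjusted p = 0.000265). RT1 genes are near-identical copies, so their probes may not tell them apart.

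Of 19 complement genes, 18 were on the array and passed, with 10 higher, 1 lower and 7 not called (median difference 4.29). C1qa had levels of 6.92, 7.26, 7.14 and 6.84 in TRKA cells, against 1.43, 1.35, 1.90 and −4.16 in p75 cells, and C1qb 6.07, 6.42, 6.18 and 5.89 in TRKA cells, against −0.57, −0.68, −0.72 and −1.32 in p75 cells. Both encode chains of C1q, the recognition molecule of the classical pathway, and were higher on every TRKA array, by 6.91 ± 1.26 (SE; limma adjusted p = 0.000671) for C1qa and by 6.96 ± 0.56 (SE; limma adjusted p = 4.87e-07) for C1qb. Cfd, the protease of the alternative pathway, differed by 9.83 ± 0.79 (SE; limma adjusted p = 4.91e-07). C1s, the protease that C1q activates, went the other way and was at least 23.8-fold lower in TRKA cells (limma adjusted p = 4.13e-08). Of 20 phagocyte oxidase and antimicrobial genes, 20 were on the array and 14 passed, with 9 higher and none lower (median 4.39). Cybb, the catalytic subunit of the oxidase that makes superoxide, had levels of 5.05, 5.12, 5.27 and 4.71 in TRKA cells, against −5.07, −5.66, −1.45 and −5.05 in p75 cells, and differed by 9.35 ± 0.68 (SE; limma adjusted p = 2.08e-07).

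Among 18 scavenger and efferocytosis genes, 17 were on the array and 15 passed, with 9 higher and 3 lower (median 2.85). Mrc1, the mannose receptor, differed by 7.03 ± 0.49 (SE; limma adjusted p = 1.22e-07), and Msr1, a receptor for modified lipoproteins, by 6.94 ± 0.67 (SE; limma adjusted p = 2.79e-06). The 3 that fell were Pros1, a bridging ligand for dying cells (−6.15, limma adjusted p = 4.48e-06), Scarb1, the receptor for high-density lipoprotein (−5.89, limma adjusted p = 0.00179), and Axl, a receptor for Gas6 (−2.01, limma adjusted p = 0.0317). Axl was not called without p75 replicate 1, 2, 3 or 4 (−1.95 to −2.05, limma adjusted p = 0.0542 to 0.0669). Gas6 itself was higher (3.21, limma adjusted p = 4e-08). Of 24 lysosomal genes, all passed and 21 were higher, but the median was 1.80, and on the common-probe scale 13 were higher and 1 lower. Atp6v0d2, a subunit of the proton pump, differed by 8.40 ± 0.79 (SE; limma adjusted p = 2.23e-06), and Gpnmb, a lysosomal glycoprotein, by 4.76 ± 0.40 (SE; limma adjusted p = 7.24e-07). Among the small differences, that of Cd63, a tetraspanin (0.85), turned to −0.04 on the common-probe scale.

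Secreted signals were divided between the populations. Of 26 chemokine genes on the array, 23 passed, with 14 higher, 1 lower and 8 not called (median 3.36). Ccl2, which draws monocytes, had levels of −0.02, 0.30, 1.12 and −0.22 in TRKA cells, against −4.39, −3.13, −4.13 and −2.97 in p75 cells, and differed by 3.95 ± 0.64 (SE; limma adjusted p = 0.000284). Cxcl2, which draws neutrophils, differed by 9.12 ± 1.31 (SE; limma adjusted p = 9.87e-05), and Pf4, also known as Cxcl4, by 6.68 ± 0.57 (SE; limma adjusted p = 8.63e-07). Cxcl6 was at least 4.58-fold lower (limma adjusted p = 0.00811), and Cxcl12 was not called (−1.04, limma adjusted p = 0.719). Of 24 interleukin and TNF family genes, 18 passed, with 8 higher and 6 lower (median 0.61, and 6 each way with −0.28 on the common-probe scale). Il1b, an inflammatory cytokine of macrophages, had levels of −0.19, 2.31, 0.52 and 1.12 in TRKA cells, against −5.05, −5.07, −5.23 and −5.47 in p75 cells, and differed by 6.15 ± 0.44 (SE; limma adjusted p = 1.86e-07). Il18, which inflammasomes release, differed by 7.26 ± 0.30 (SE; limma adjusted p = 5.91e-10). Il33, an alarm cytokine stored in the nucleus, had levels of −7.61, −6.82, −1.54 and −2.29 in TRKA cells, against 4.32, 4.06, 3.82 and 4.21 in p75 cells, and differed by −8.67 ± 1.12 (SE; limma adjusted p = 4.2e-05). On the arrays, TRKA cells thus had the higher Il1b and p75 cells the higher Il33, with no overlap between the groups in either gene. Il6 was above background on no TRKA array, against levels of 0.07, −1.19, −0.59 and −1.65 in p75 cells, and was at least 24.6-fold lower (limma adjusted p = 0.000305). Csf1, the ligand of the Csf1r that TRKA cells carried, was lower in TRKA cells (−3.09, limma adjusted p = 0.0164). Csf1 was not called after quantile normalization (−1.82, limma adjusted p = 0.0872). Il11, a cytokine that signals through gp130, was also lower (−4.48, limma adjusted p = 2.94e-05).

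Of 20 heme, iron and lipid genes, 19 were on the array and passed, with 14 higher and 1 lower (median 3.73). Hmox1, the enzyme that breaks down heme, had levels of 7.41, 7.69, 7.60 and 7.38 in TRKA cells, against 2.70, 2.13, 2.29 and 2.76 in p75 cells, and Apoe, a carrier of cholesterol, 7.02, 7.22, 6.95 and 6.84 in TRKA cells, against 2.85, 2.50, 2.22 and 2.28 in p75 cells. Hmox1 differed by 5.05 ± 0.20 (SE; limma adjusted p = 5.01e-10) and Apoe by 4.54 ± 0.23 (SE; limma adjusted p = 4.75e-09). The iron exporter Slc40a1 (ferroportin) differed by 8.31 ± 0.55 (SE; limma adjusted p = 7.89e-08), and the lipid carrier Fabp4 was at least 262-fold higher (limma adjusted p = 1.68e-08). Soat1, which esterifies cholesterol, was the 1 that fell (−4.83, limma adjusted p = 0.0237). Soat1 was not called without TRKA replicate 2 or 3 or p75 replicate 2 or 3 (−3.90 to −4.45, limma adjusted p = 0.0628 to 0.0701).

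Markers of other blood cells and of specialised macrophages are given by list. Among all genes tested, 18.8% were called higher and 16.9% lower, and the B cell and mast cell counts below are near those shares. Of 15 neutrophil genes, 15 were on the array and 7 passed, and none was called, with 3 to 5 of the 7 above background on the arrays of each group. That count was 2 higher after normexp correction and 4 higher after quantile normalization. Of 19 T and NK cell genes, 13 passed, with 1 higher and 2 lower (1 lower without TRKA replicate 2 or 4 or p75 replicate 2 or 3, 4 on the common-probe scale and 0 after quantile normalization). The 1 was Cd4, which rat macrophages also express (6.97, limma adjusted p = 3.23e-06), while Cd3e, the T cell receptor chain, was above background on no TRKA array (−0.11, limma adjusted p = 0.91). Of 12 B cell genes 6 passed and 1 was higher, of 13 mast cell genes 8 passed with 1 higher and 1 lower, of 14 dendritic cell genes 8 passed and 3 were higher, and of 13 erythroid and platelet genes 7 passed and 2 were higher, among them Pf4. After quantile normalization the numbers higher were 3 for B cells, 3 for mast cells, 6 for dendritic cells and 5 for erythroid cells and platelets, and on the common-probe scale mast cells had 0 and erythroid cells and platelets 1. The summed level of the erythroid and platelet list was 51.9 to 72.4 in TRKA cells, against 1.49 to 2.81 in p75 cells. Its median level was −4.87 to −3.49 in TRKA cells, against −5.02 to −4.55 in p75 cells. The gap in the sum thus comes from few members and does not describe the list as a whole. Of 12 microglia-enriched genes, 10 passed, with 4 higher (2 on the common-probe scale) and 2 lower. P2ry12, the purine receptor of microglia, was lower (−5.54, limma adjusted p = 0.00147), and Tmem119 was not called (1.37, limma adjusted p = 0.386). Of 12 osteoclast genes, 9 passed and 4 were higher with 1 lower, among the 4 Tcirg1, a subunit of the proton pump (4.29, limma adjusted p = 0.000409), and Acp5, the tartrate-resistant phosphatase (4.06, limma adjusted p = 0.00468).

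**Figure D5:**
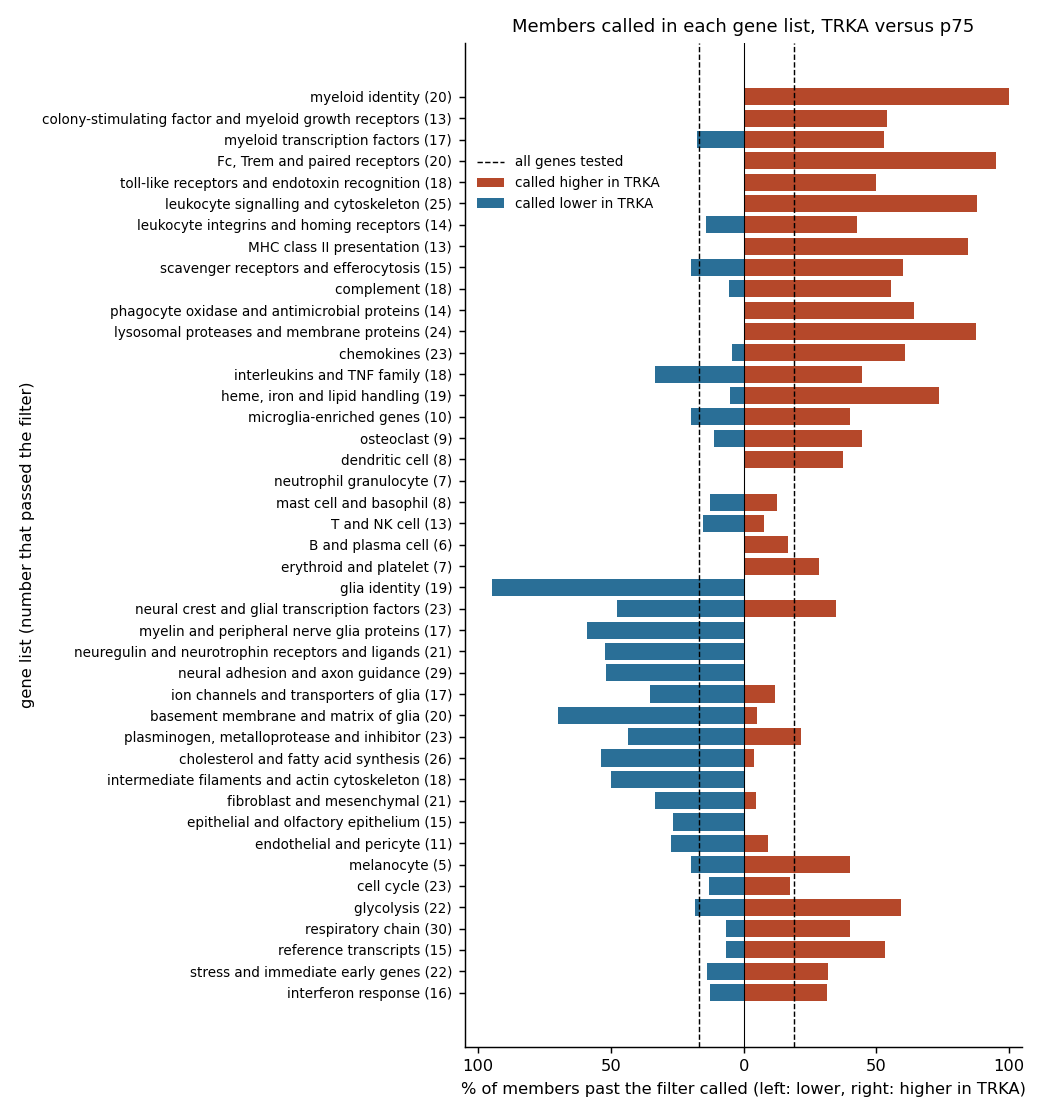
Percentage of the members of each gene list that passed the filter and were called higher (red, to the right) or lower (blue, to the left) in TRKA than in p75 cells, with the number that passed in brackets. Dashed lines mark 18.8% higher and 16.9% lower among all genes tested. The bars run from 20 of 20 higher for myeloid identity to 18 of 19 lower for glia identity, and none of the 7 neutrophil genes was called.

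The genes of ensheathing and peripheral glia were lower in TRKA cells. The glia identity list held 20 genes, 20 were on the array and 19 passed, of which 18 were lower, none higher and 1 not called (median difference −8.40, and −9.29 on the common-probe scale). A gene can pass the filter through the p75 arrays alone, and 7 of the 19 were above background on no TRKA array. These counts are therefore descriptions too. Between 6 and 11 of the 19 were above background on the TRKA arrays, with summed linear levels of 3.17 to 12.3, against 19 on each p75 array, with sums of 197 to 205. Scn7a, a sodium channel of glia, was above background on no TRKA array, against levels of 5.08, 4.96, 5.06 and 5.14 in p75 cells. It was at least 1472-fold lower (limma adjusted p = 2.05e-11). S100b, the calcium-binding protein used to stain glia, had levels of −7.72, −7.46, −7.37 and −7.48 in TRKA cells, none of them above background, against 3.88, 3.86, 3.78 and 3.73 in p75 cells. It was at least 618-fold lower (limma adjusted p = 1.62e-09). Lgi4, which Schwann cells secrete to myelinate axons, was at least 1086-fold lower (limma adjusted p = 7.65e-09), and the adhesion molecule Ncam1 at least 565-fold (limma adjusted p = 3.18e-11). The p75 replicates of Scn7a, S100b and Ncam1 were each within 0.3 log2 units. Gfap, the filament protein of astrocytes and ensheathing glia, had levels of −4.95, −4.84, −4.58 and −5.01 in TRKA cells, against 2.19, 1.88, 2.27 and 2.63 in p75 cells, and differed by −7.09 ± 0.35 (SE; limma adjusted p = 3.69e-09). Erbb3, the neuregulin receptor of glia, had levels of −0.56, −6.60, −7.45 and −7.53 in TRKA cells, against 2.15, 2.56, 2.30 and 1.57 in p75 cells. Erbb3 was above background on TRKA replicate 1 alone among the TRKA arrays, and differed by −7.68 ± 1.28 (SE; limma adjusted p = 0.00033). The exception was Aqp1, a water channel, with levels of 3.46, 2.13, 0.52 and 2.45 in TRKA cells, against 1.66, −0.03, 1.11 and 1.94 in p75 cells. Its groups overlapped (0.97, limma adjusted p = 0.539).

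Transcription factors of the neural crest and its glia were mixed. Of 24 on the list, 23 were on the array and passed, with 8 higher, 11 lower and 4 not called (median −1.70, and 5 higher and 13 lower on the common-probe scale). Nr2f1, an orphan nuclear receptor, was at least 462-fold lower (limma adjusted p = 7.2e-07), and its relative Nr2f2 at least 68.5-fold (limma adjusted p = 4.99e-10). Sox5, which works beside Sox10, differed by −8.79 ± 1.63 (SE; limma adjusted p = 0.000793), and Foxd3, a factor of early crest cells, by −4.85 ± 0.32 (SE; limma adjusted p = 8.21e-08). Egr2, which drives myelination and is also used by macrophages, had levels of 2.01, 1.77, 2.62 and 0.96 in TRKA cells, against −2.02, −1.35, −1.54 and −7.67 in p75 cells, and was higher in TRKA cells by 4.98 ± 1.10 (SE; limma adjusted p = 0.00283). Etv1, an ETS factor, and Id2, an inhibitor of helix-loop-helix factors, were higher too (6.44 and 6.29, limma adjusted p = 7.1e-05 and 0.00123). Pax3, a factor of neural crest precursors, had levels of 7.16, 7.68, 7.66 and 7.22 in TRKA cells, against 6.60, 6.87, 6.94 and 6.69 in p75 cells. The gap was called at 0.66 (limma adjusted p = 0.0245) but turned to −0.23 on the common-probe scale. Pax3 was not called without TRKA replicate 2 or 3 or p75 replicate 1 or 4 (0.57 to 0.63, limma adjusted p = 0.0526 to 0.0652).

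Of 19 myelin and peripheral nerve proteins, 17 passed, with 10 lower, none higher and 7 not called (median −3.61). Gldn, which gathers sodium channels at nodes, differed by −7.93 ± 0.90 (SE; limma adjusted p = 1.27e-05), Cnp, a myelin enzyme, by −7.35 ± 1.04 (SE; limma adjusted p = 8.5e-05) and Pmp22, a peripheral myelin protein, by −6.48 ± 1.48 (SE; limma adjusted p = 0.00359). Mbp, the major myelin basic protein, was not called (1.03, limma adjusted p = 0.639).

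Receptors and ligands of the neuregulin and neurotrophin systems passed the filter in 21 of 25 cases, with 11 lower, none higher and 10 not called (median −3.01). Gfra2 and Gfra1, co-receptors for ligands of the GDNF family, were lower, Gfra2 at least 291-fold (limma adjusted p = 0.000391) and Gfra1 by −7.02 ± 0.81 (SE; limma adjusted p = 1.52e-05). Gdnf, a ligand of that family, was at least 22.7-fold lower (limma adjusted p = 0.000545). Ntrk3, the receptor for neurotrophin 3, was at least 49.3-fold lower (limma adjusted p = 5.32e-09), and Erbb2, the partner of Erbb3, differed by −3.50 ± 0.33 (SE; limma adjusted p = 2.22e-06).

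Of 33 neural adhesion and guidance genes, 31 were on the array and 29 passed, with 15 lower, none higher and 14 not called (median −3.63). Sema3b, a secreted semaphorin that repels axons, had levels of −3.44, −4.05, −2.25 and −2.41 in TRKA cells, against 5.85, 5.78, 5.81 and 5.84 in p75 cells, and differed by −8.86 ± 0.41 (SE; limma adjusted p = 2.02e-09). Its relative Sema3c differed by −8.05 ± 0.26 (SE; limma adjusted p = 7.66e-11). Both were above background on all 8 arrays and without overlap. Cadm4, an adhesion molecule of Schwann cells, had levels of −3.22, −4.43, −2.86 and −2.25 in TRKA cells, against 4.43, 4.85, 4.87 and 4.55 in p75 cells, and differed by −7.86 ± 0.58 (SE; limma adjusted p = 2.18e-07). Slit2, a guidance cue, was at least 58.6-fold lower (limma adjusted p = 2.24e-08). Of 20 glial channels and transporters, 17 passed, with 6 lower and 2 higher. Atp1b2, a subunit of the sodium pump, was at least 213-fold lower (limma adjusted p = 1.4e-09), and Slc1a3 (GLAST), a glutamate transporter, at least 32-fold (limma adjusted p = 2.31e-06). The 2 that were higher, Kcnk2, a potassium channel (2.10, limma adjusted p = 0.0273) and Aqp4, a water channel (1.20, limma adjusted p = 0.00434), were not called on the common-probe scale. Kcnk2 was not called without TRKA replicate 1 or p75 replicate 3 or 4 (1.46 to 1.99, limma adjusted p = 0.0654 to 0.071).

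Most genes of the basement membrane that glia lay around axons were lower in TRKA cells. Of 23 genes on that list, 20 were on the array and passed, with 14 lower, 1 higher and 5 not called (median −6.55, and 17 lower on the common-probe scale). Nid1, which links laminin to collagen IV, was above background on no TRKA array, against levels of 4.96, 4.42, 4.29 and 4.59 in p75 cells, and was at least 1043-fold lower (limma adjusted p = 2.2e-06). Col4a2, a chain of collagen IV, had levels of −3.85, −4.78, −4.30 and −2.88 in TRKA cells, against 4.43, 4.89, 4.95 and 4.79 in p75 cells, and differed by −8.72 ± 0.70 (SE; limma adjusted p = 4.97e-07). Itga7, a laminin receptor chain, was at least 504-fold lower (limma adjusted p = 2.17e-05), and the laminin chain Lama2 at least 332-fold (limma adjusted p = 3.44e-05). Tnc, the matrix protein tenascin C, had levels of −7.94, −7.65, 2.73 and 0.45 in TRKA cells, against 5.47, 5.45, 5.45 and 5.43 in p75 cells. Postn, which binds tenascin, had levels of −7.81, −7.54, 0.35 and −7.95 in TRKA cells, against 4.98, 4.86, 4.88 and 4.92 in p75 cells. Both were near the floor on TRKA replicates 1 and 2 and above the 75th percentile on replicate 3, and on TRKA replicate 4 Tnc was above it while Postn was near the floor. For both, the p75 arrays differed by under 0.2 log2 units. The differences were −8.55 ± 1.85 (SE; limma adjusted p = 0.00242) for Tnc and −10.65 ± 1.39 (SE; limma adjusted p = 4.6e-05) for Postn, and the cause of the spread among TRKA replicates was not tested. The 1 that was higher was Spp1 (osteopontin), a secreted matrix protein of macrophages and bone cells, with levels of 5.59, 6.03, 5.92 and 5.74 in TRKA cells, against 0.94, −0.12, 0.59 and −0.02 in p75 cells. Spp1 was higher in TRKA cells by 5.47 ± 0.26 (SE; limma adjusted p = 2.64e-09).

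Of 23 plasminogen, metalloprotease and inhibitor genes, all passed, with 10 lower, 5 higher and 8 not called (median −2.01). Plat, the tissue plasminogen activator, was above background on no TRKA array, against levels of 4.94, 4.90, 4.91 and 5.01 in p75 cells, and was at least 1354-fold lower (limma adjusted p = 1.48e-12). Plau, the urokinase that cleaves the same substrate, was higher in TRKA cells by 3.96 ± 0.53 (SE; limma adjusted p = 5.16e-05), as was Mmp12, the elastase of macrophages, by 7.36 ± 0.97 (SE; limma adjusted p = 4.78e-05). Adamts4, Adamts5 and Adamts1, proteases of proteoglycans, were lower by at least 246-fold, 201-fold and 136-fold (limma adjusted p = 1.56e-05, 8.74e-06 and 2.25e-08). Of the inhibitors, Timp3 fell (−6.33, limma adjusted p = 0.0047) and Timp2 rose (3.54, limma adjusted p = 3.11e-07). Mmp14, called at 0.76 (limma adjusted p = 0.00444), turned to −0.13 on the common-probe scale.

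Of 26 cholesterol and fatty acid synthesis genes, all passed, with 14 lower, 1 higher and 11 not called (median −2.20). Fads1 and Fads2, the desaturases of long fatty acids, differed by −8.95 ± 1.33 (SE; limma adjusted p = 0.00013) for Fads1 and by −8.02 ± 1.23 (SE; limma adjusted p = 0.000168) for Fads2. Elovl5, which lengthens such acids, differed by −8.19 ± 0.96 (SE; limma adjusted p = 1.78e-05). On all but 1 TRKA array, levels were −7.89 to −7.13 for Fads1, −7.50 to −6.60 for Fads2 and −7.93 to −7.52 for Elovl5. Undetected probes had median levels of −7.87 to −7.39 on the TRKA arrays, so the sizes of these differences lean on the floor. Mvd, an enzyme of sterol synthesis, was higher (3.75, limma adjusted p = 0.0303), though not called on the common-probe scale. Mvd was not called without TRKA replicate 1, 2 or 3 or p75 replicate 1 or 3 (2.74 to 3.73, limma adjusted p = 0.0545 to 0.0871). Of 21 filament genes, 18 passed, with 9 lower and none higher (median −2.03). Synm, a filament protein, was at least 377-fold lower (limma adjusted p = 3.09e-06), and Nes (nestin), the filament of neural precursors, differed by −6.71 ± 0.85 (SE; limma adjusted p = 3.47e-05). Vim (vimentin), the filament of many mesenchymal cells and glia, had levels of 4.83, 4.55, 4.40 and 4.38 in TRKA cells, against 5.96, 6.04, 6.04 and 5.91 in p75 cells, and differed by −1.45 ± 0.18 (SE; limma adjusted p = 3.22e-05).

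Markers of the other cells that a mucosa culture could hold were set beside these. Of 22 fibroblast and mesenchymal genes, 21 passed, with 7 lower, 1 higher and 13 not called (median −3.18). Between 8 and 11 of the 21 were above background on the TRKA arrays, with summed levels of 137 to 175, against 17 to 18 and sums of 231 to 248 on the p75 arrays. The median level of the 21 was −7.53 to −4.15 on the TRKA arrays, against −0.17 to 0.46 on the p75 arrays. The number lower was 11 on the common-probe scale and 0 among genes above background on at least 3 arrays of each group, a filter that removes genes at background in 1 population. Col1a1, the main collagen of connective tissue, had levels of 6.69, 7.01, 6.91 and 6.93 in TRKA cells, against 7.25, 7.16, 7.25 and 7.24 in p75 cells. It was high on all 8 arrays and not called (−0.34, limma adjusted p = 0.392), with −1.23 on the common-probe scale. On the linear scale, Col1a1 made up most of the summed level of the list in both groups. Lox, which crosslinks collagen, differed by −7.42 ± 1.20 (SE; limma adjusted p = 0.000265), Col5a1, a minor fibrillar collagen chain, by −7.83 ± 1.42 (SE; limma adjusted p = 0.000666), and Loxl1 was at least 230-fold lower (limma adjusted p = 5.32e-09). Lox was at −7.99 to −7.35 on all TRKA arrays but replicate 1, near the level of undetected probes. Of 20 epithelial and olfactory epithelial genes, 15 passed, with 4 lower, none higher and 11 not called (7 lower on the common-probe scale, 2 with a filter of 8 arrays and 0 with that of 3 arrays in each group), and summed levels of 86.3 to 129 in TRKA cells against 86.5 to 99.2 in p75 cells. Of 14 endothelial and pericyte genes, 11 passed, with 3 lower and 1 higher. Mcam, an adhesion molecule of pericytes, endothelium and some glia, differed by −8.51 ± 0.93 (SE; limma adjusted p = 9.15e-06), and Pecam1, which platelets and leukocytes also carry, was at least 4.73-fold higher (limma adjusted p = 0.00056). Of 10 melanocyte genes, 5 passed, with 2 higher and 1 lower. The part of fibroblast transcripts in the results above was not tested.

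Lists of genes that every cell type uses had median differences of −0.20 to 1.77. Of 24 cell cycle genes, 23 passed, with 4 higher, 3 lower and 16 not called (median −0.20). These counts are near the shares among all genes tested (18.8% higher and 16.9% lower). Mki67, the proliferation antigen, had levels of 3.81, 4.22, 3.05 and 3.79 in TRKA cells, against 1.94, 1.93, 1.15 and 1.15 in p75 cells, and was higher in TRKA cells by 2.18 ± 0.35 (SE; limma adjusted p = 0.000284). Rrm2 and Rrm1, subunits of the enzyme that makes deoxynucleotides, were lower, Rrm2 at least 19.4-fold (limma adjusted p = 1.27e-06) and Rrm1 by −4.82 ± 1.56 (SE; limma adjusted p = 0.0274). Rrm1 was not called without TRKA replicate 1, 3 or 4 or p75 replicate 2 or 3 (−4.03 to −4.69, limma adjusted p = 0.0603 to 0.0756). Of 22 glycolysis genes, all passed, with 13 higher and 4 lower (median 1.77). Pgk1, a glycolytic kinase, differed by 3.71 ± 0.32 (SE; limma adjusted p = 8.88e-07), Hk3, the hexokinase of myeloid cells, was at least 107-fold higher (limma adjusted p = 1.65e-08), and Ldhb, a lactate dehydrogenase chain, was at least 314-fold lower (limma adjusted p = 0.000161). Of 30 respiratory chain genes 12 were higher and 2 lower (median 0.75), and on the common-probe scale 2 were higher and 6 lower, so this list has no direction apart from the scaling. Without 1 array at a time the number of respiratory chain genes called higher was 7 to 10, with 7 without p75 replicate 3. Of 15 reference transcripts 8 were higher and 1 lower (median 1.11), and 5 higher and 4 lower on the common-probe scale. Of 22 stress and immediate early genes 7 were higher and 3 lower. Hspb1, a small heat shock protein, was at least 397-fold lower (limma adjusted p = 0.000134). Of 21 interferon response genes 16 passed, with 5 higher and 2 lower, among the 5 Bst2, which tethers budding viruses (4.04, limma adjusted p = 0.000338).

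Genes above background on all 8 arrays allow a fold with a signal on both sides, although the low side can lie at the detection limit. The 10 with the largest positive differences ran from 7.91 (Fcgr1a) to 9.77 (Fxyd2), and besides genes of the lists above they included Nrros, Cd37 and Apobec1. Cd37 had levels of −6.41 and −6.48 on p75 replicates 1 and 2. The lowest spots marked well above background there were at −6.16 and −6.10, so its low side sits at the detection limit. Fxyd2, a regulator of the sodium pump, had levels of 5.38, 5.40, 5.22 and 5.55 in TRKA cells, against −5.33, −5.20, −1.86 and −5.14 in p75 cells. Nrros, which tethers latent TGF-beta on macrophages and microglia, had levels of 4.34, 4.65, 4.76 and 3.80 in TRKA cells, against −6.03, −1.55, −5.27 and −5.36 in p75 cells. Both had 1 p75 array more than 3 log2 units above the others, replicate 3 for Fxyd2 and replicate 2 for Nrros, and both stayed far from the TRKA levels. They differed by 9.77 ± 0.63 (SE; limma adjusted p = 5.63e-08) for Fxyd2 and 8.94 ± 0.89 (SE; limma adjusted p = 3.82e-06) for Nrros. The 10 with the largest negative differences ran from −7.67 (Rassf8) to −9.24 (Col7a1) and included Hspa2, Mtss2, Sptbn1 and Sod3. Rassf8 had levels of −5.73 and −5.53 on TRKA replicates 1 and 2, where the lowest such spots were at −5.63 and −5.32. Col7a1, the collagen of anchoring fibrils, had levels of −3.95, −4.76, −4.18 and −4.69 in TRKA cells, against 4.72, 5.07, 5.05 and 4.53 in p75 cells. Hspa2, a chaperone of the heat shock 70 family, had levels of −4.32, −3.64, −3.65 and −4.14 in TRKA cells, against 4.84, 4.50, 4.68 and 4.70 in p75 cells. For both, all 8 arrays fell into separate ranges with an SD of at most 0.40 in either group, and the differences were −9.24 ± 0.70 (SE; limma adjusted p = 3.04e-07) for Col7a1 and −8.62 ± 0.31 (SE; limma adjusted p = 2.59e-10) for Hspa2.

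The 10 genes whose interval reached least far from 0 were Ppia, Capns1, Rpl29-ps23, Calr, Erh, Gpx4, Hnrnpa3, Pdia3, Rhoa and Wfdc16. Ppia, a peptide-folding enzyme often used as a reference, had levels of 4.16, 3.96, 4.42 and 4.40 in TRKA cells, against 4.30, 4.27, 4.22 and 4.26 in p75 cells, a difference of −0.03 with a 95% interval of −0.43 to 0.37 (limma adjusted p = 0.917). These 10 differed by −0.03 to 0.10 here and by −0.92 to −0.79 on the common-probe scale, so their closeness to 0 holds only relative to the 75th percentile of all probes. It also holds only for the probe that stood for the gene. For Ppia, 2 of the 3 kept probes were called higher, and for Erh 1 of 2. For Hnrnpa3, 1 of 4 was called lower.

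Some genes varied more within a population than between them. Pi4ka, a lipid kinase, had levels of −3.84, −3.29, 5.45 and 3.67 in TRKA cells, against 3.24, 2.57, 2.34 and 2.78 in p75 cells, so TRKA replicates 1 and 2 were low and replicates 3 and 4 high, and it was not called (limma adjusted p = 0.308). The other genes with the widest spread among TRKA arrays were Hsd17b10, Gipc1, Gabpb2 and Mapkapk2, and none was called. Among the p75 arrays the widest were Nle1, Grk6, Rdh11, Szrd1 and Sbsn. Nle1, a ribosome assembly factor, had levels of −5.41, −5.36, −5.71 and −5.62 in TRKA cells, against −6.16, 0.73, 0.82 and −6.05 in p75 cells, with p75 replicates 1 and 4 low. Of these 5, Grk6, a kinase of activated receptors, was the 1 called (5.64, limma adjusted p = 0.00484). Leaving out 1 array brought calls for 6 of the others. All were chosen for their wide spread, and only the omission that brought a call is given for each. These calls are therefore descriptions of that spread. Without TRKA replicate 3, Pi4ka was lower (−3.88, limma adjusted p = 0.0396) and Mapkapk2 higher (1.91, limma adjusted p = 0.019). Gabpb2 was lower without TRKA replicate 2 (−5.24, limma adjusted p = 0.000528) and Gipc1 without TRKA replicate 1 (−4.01, limma adjusted p = 0.0344). Rdh11 was lower without p75 replicate 4 (−6.09, limma adjusted p = 0.00188) and Sbsn without p75 replicate 3 (−5.18, limma adjusted p = 0.0341). Of 2516 genes with at least 2 kept probes, 55 had probes called in opposite directions. For Hnrnpr, an RNA-binding protein, one probe was higher (2.61) and another lower (−3.36), and for Tmed7, a cargo receptor, one was higher (2.45) and another lower (−5.11). Gabpb1, Irak3 and Commd8 also had a probe called in each direction, so the direction of these 5 genes depends on which probe is read. The lower probes of Gabpb1, Irak3 and Commd8 were above background on 1, 1 and 2 TRKA arrays. Fitted on the TRKA and p75 arrays alone, those lower probes were not called (limma adjusted p = 0.0823, 0.137 and 0.0956). Gabpb1 was not called without TRKA replicate 2 (−4.20, limma adjusted p = 0.0504).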

How the data were processed

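Single-colour Cy3 scanner files hold the processed signal, a spot intensity, linear and already background-subtracted, per the file headers. Scanning used Agilent Feature Extraction, version 10.7.3.1 per the file headers and 10.5 per the submitters' processing notes. The authors also deposited log2 values, without stating their scale or centring. Compared with the scanner files, they follow quantile-normalized log2 signals centred on each probe's median, and they served as an alternative only.

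Here log2 processed signals were scaled to each array's 75th percentile over non-control probes, after the 4259 control spots and outlier spots were left out and spots of a probe averaged (30367 probes, 0 saturated spots). Probes were named through RefSeq accessions (18347), current symbols (3190) or else the name in the file (8830). A probe had to be well above background on at least 4 of 16 arrays, and the probe with the highest mean over the 16 arrays stood for its gene. TRKA and p75 were compared with limma 3.58.1 (R 4.3.3, lmFit and eBayes) on all 16 arrays, which share 1 estimate of the spread, with Benjamini-Hochberg adjustment over 20572 genes and a call at 0.05. Arrays were compared as wholes with exact permutation tests (scipy 1.17.1). The fit was tested on simulated data. Arrays carry no counts, so their number limits the precision.

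The comparison, the 43 gene lists and their members were chosen with earlier results of these data known. Genes named are the sort genes, list members with the largest differences (up to 6 a list in each direction) or against their list, the 10 largest in each direction and the 10 closest among genes on all 8 arrays, the 5 most variable per group and 5 with opposed probes. Defining markers such as Adgre1, Aif1, Ptprc, Vim and Col1a1, members not called, and some further members (Apoe, Ccl2, Cd53, Cd63, Erbb2, Foxd3, Pax3, Slit2, Tnc, Trem2) were named after their values were seen. Some genes that the rule names are not reported here. Same-numbered TRKA and p75 arrays did not deviate together (correlations of −0.012, 0.004, −0.003 and 0.023), so numbers were not used as pairs. Alternatives covered the scaling, background correction, dim-probe filter, choice of probe, fit, replicate block, slide 1 alone and leaving out each replicate.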

Additional observations from a re-analysis of the deposited data

Results flagged for a closer look

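In 42 of 368 sets of 4 arrays (184 genes named here in 2 populations), 1 array stood apart by Dixon's criterion, 21 sets in TRKA and 21 in p75. The criterion flags about 1 in 20 sets of normally distributed values, and this was 11.4%. These shares cannot be compared, since some genes were named for their wide spread and levels near the floor are not such values. Values below are levels in log2 units, with the range of the other 3 arrays after each. TRKA replicate 1 was above the other TRKA arrays for Cxcl12 (0.35 against −7.86 to −6.73), Erbb3 (−0.56 against −7.53 to −6.60), Fads1 (−1.53 against −7.89 to −7.13) and Gabpb1 (0.47 against −7.60 to −6.95). It was also above them for Lox (−1.95 against −7.99 to −7.35), Mbp (−0.50 against −7.95 to −7.42) and Scarb1 (0.73 against −6.53 to −5.54). Below the others, TRKA replicate 1 held the value of Fcgr1a (5.49 against 5.66 to 5.70). TRKA replicate 2 was above the other TRKA arrays for Gabpb2 (3.26 against −5.72 to −4.95), Gfra1 (−4.95 against −6.52 to −6.39) and Rrm1 (0.97 against −7.94 to −7.44). Below the others, TRKA replicate 2 held the value of Gpx4 (4.19 against 4.73 to 4.80) and Szrd1 (−5.51 against 1.84 to 2.45). TRKA replicate 3 was above the other TRKA arrays for Commd8 (4.05 against 3.47 to 3.56), Elovl5 (−2.37 against −7.93 to −7.52), Nr4a1 (−2.94 against −7.75 to −7.01) and Postn (0.35 against −7.95 to −7.54). Below the others, TRKA replicate 3 held the value of Mapkapk2 (−5.83 against 2.45 to 2.97) and Mrc1 (0.82 against 2.31 to 2.43). TRKA replicate 4 was above the other TRKA arrays for Fads2 (−0.99 against −7.50 to −6.60) and Sbsn (−0.87 against −6.22 to −5.97). The p75 array of replicate 1 was above the other p75 arrays for Adamts1 (2.10 against 1.46 to 1.48). Below the others, p75 replicate 1 held the value of Gfra1 (−0.46 against 1.30 to 1.53) and Tlr2 (−6.82 against −6.21 to −6.11). The p75 array of replicate 2 was above the other p75 arrays for Itga4 (1.38 against 0.40 to 0.47), Lcp1 (−4.27 against −8.30 to −7.88), Nrros (−1.55 against −6.03 to −5.27) and Spi1 (−4.10 against −4.85 to −4.75). Below the others, p75 replicate 2 held the value of Cd14 (−8.36 against −1.19 to −0.38). The p75 array of replicate 3 was above the other p75 arrays for Cd53 (−4.20 against −8.27 to −8.09), Clec4d (−7.90 against −8.18 to −8.15), Clec4e (−7.92 against −8.23 to −8.19) and Cybb (−1.45 against −5.66 to −5.05). It was also above them for Etv1 (−4.87 against −5.85 to −5.72), Fabp4 (−6.34 against −8.37 to −8.32), Fxyd2 (−1.86 against −5.33 to −5.14) and Itgb2 (−7.76 against −8.23 to −8.21). The same array was further above them for Mbp (−3.29 against −8.32 to −7.64) and Vav1 (−7.91 against −8.19 to −8.15). The p75 array of replicate 4 was above the other p75 arrays for Irf8 (−4.48 against −6.58 to −6.29). Below the others, p75 replicate 4 held the value of C1qa (−4.16 against 1.35 to 1.90) and Egr2 (−7.67 against −2.02 to −1.35). Sets in which all 4 arrays were above background made up 15 of the 42, so in the other 27 at least 1 array was not marked well above background. The largest number for 1 array was 10, on p75 replicate 3, and the cause was not tested.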

How the results depend on the processing

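Of the 184 genes named, 127 kept their direction and their side of the 0.05 threshold in every alternative that gave them a value, and 145 of the 156 called genes were called with each replicate left out in turn. The number of myeloid identity genes called higher was 15 to 20 over all alternatives, and that of glia identity genes called lower was 18 in all but the filters, which gave 15 (at least 8 arrays) and 6 (at least 3 arrays of each group). That last filter removes genes at background in 1 population by its construction and called 4874 genes in all, 1241 of them lower. Scaling moved the balance of directions. Genes called higher numbered 5828 after normexp correction and 1515 on the common-probe scale, which called 5805 lower. With 1 replicate left out, 6280 to 7671 genes were called, 3380 to 4132 higher and 2900 to 3539 lower. The percentage of spots well above background per array then differed by −16.5 to −14.5 points and the median processed signal per array by −2.81 to −2.55 log2 units, each without overlap, but with 3 against 4 arrays no exact p can go below the 4 against 4 minimum, and none passed 0.05.

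The direction of 25 named genes turned in at least 1 alternative, 15 of them in a comparison that was called on either side, and apart from the probe settings the cause was not tested. On the common-probe scale, after quantile normalization and in the authors' deposited values, the differences were −0.89, −0.99 and −0.99 for Calr, −0.043, −0.19 and −0.19 for Cd63, −0.79, −0.86 and −0.86 for Erh, and −0.87, −0.95 and −0.95 for Gpx4. In the same order they were −0.80, −0.86 and −0.87 for Hnrnpa3, −0.13, −0.059 and −0.059 for Mmp14, −0.23, −0.072 and −0.072 for Pax3, and −0.79, −0.88 and −0.88 for Pdia3. On the common-probe scale alone Clec4e turned to −0.22 and Csf3r to −0.028. After quantile normalization, in the deposited values and after normexp correction, Wfdc16 was 1.48, 1.47 and 0.34, Cd3e 0.39, 0.38 and 0.53, and Myd88 0.20, 0.20 and 0.28. Normexp correction also gave −0.051 for Calr, −0.025 for Gpx4 and 0.36 for Mapkapk2. Scaling over spots gave −0.10 for Calr, −0.0090 for Erh, −0.092 for Gpx4, −0.017 for Hnrnpa3 and −0.013 for Pdia3. The mean of a gene's probes turned Commd8 to −0.36, Irak3 to −0.56, Hnrnpa3 to −0.40, Ppia to 1.14 and Mapkapk2 to 1.22, and Gabpb1 was 3.64 from the probe left by the filter of 3 arrays in each group. With each replicate left out in turn, values with both signs ran from −0.13 to 0.16 for Calr, −0.082 to 0.066 for Capns1, −0.52 to 0.21 for Cd3e, −2.96 to 0.43 for Cxcl12, −0.044 to 0.16 for Gpx4, −0.21 to 2.68 for Hsd17b10, −1.02 to 1.91 for Mapkapk2, −0.75 to 2.23 for Mbp, −1.24 to 0.98 for Myd88, −0.092 to 0.062 for Ppia, −0.21 to 0.11 for Rhoa, −0.12 to 0.058 for Rpl29-ps23, −0.058 to 2.24 for Tmem119 and −0.18 to 0.17 for Wfdc16. Without TRKA replicate 3, Mapkapk2 was called higher.

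With a replicate block, fitted on all arrays, 7160 genes were called and no named gene lost or gained a call. Fitted on slide 1 alone the replicate block called 2941 genes, 1244 higher and 1697 lower, and 29 named genes were no longer called, while slide 1 without the block called 5067 and 14 were no longer called. The numbers do not pair the arrays, so these are fits with fewer degrees of freedom. Low signal limits the TRKA arrays most: undetected probes had median levels of −7.87 to −7.39 on the TRKA arrays and −8.24 to −7.99 on the p75 arrays, so differences near those levels are bounds.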
